A study of Mus musculus with 12 samples.

Results

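The genes described here are 36 fast-response genes measured in small vessel fragments of the mouse brain. They are 31 immediate early genes, among them the Fos, Jun, Egr and Nr4a families, and 5 inducible heat shock genes: Hspa1a, Hspa1b, Hspb1, Hsph1 and Dnajb1. The list was drawn up by gene name, and each gene was followed on the brightest probe set that the array annotation assigns to that gene alone, meaning that with the highest mean level on the 12 arrays. All 36 had such a probe set, of 18193 genes that did. Of these, 35 exceeded the median of all deposited values (3.27 on the log2 scale) on at least 3 arrays, and so belonged to the 11716 genes tested. The exception was Fosl1, a Fos family protein, whose probe set read 2.17 to 2.30 on every array.

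RNA came from the cerebrum and from the cerebellum of 3 Notch3 knockout mice and 3 littermate controls, labelled wildtype, all C57BL/6 and 2 months old. Each region of each mouse had its own Affymetrix array, which gave 4 groups of 3 (cerebral and cerebellar vessels of controls, cerebral and cerebellar vessels of knockouts). Notch3 is a receptor of the smooth muscle cells and pericytes that wrap small vessels. The sources used here give neither the knockout allele nor the isolation of the fragments. Replicates were separate mice, and RNA was purified and amplified the same way in all groups, per the labels.

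Immediate early genes are switched on within minutes of a stimulus by transcription factors that are already in the cell, so they need no new protein. Many encode transcription factors themselves (AP-1, EGR and NR4A proteins), and others encode the inhibitors that end the response, such as phosphatases of MAP kinases and proteins that destabilise mRNA. Heat shock genes are driven by the factor HSF1 when proteins unfold, and encode chaperones; in vessels both groups are known to respond to blood flow, growth factors and injury, and also to the cutting and dissociation of tissue.

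Across the genes tested the arrays resembled each other closely (r of 0.991 to 0.996 within groups and 0.975 to 0.994 between them). Notch3 itself read 10.84 to 12.02 on the control arrays and 2.48 to 3.58 on the knockout arrays, so every array matched its genotype label. Xist, the transcript of the silenced X chromosome of females, read 12.9 to 13.3 on 8 arrays and 2.75 to 2.87 on the 4 arrays of control mouse 3 and knockout mouse 2. The difference between the 3 prime and 5 prime control probe sets, a sign of RNA integrity, ranged from 1.51 to 1.74 for actin and from 2.18 to 2.44 for Gapdh. Every pair of groups overlapped in these values except control cerebral against knockout cerebellar for Gapdh, where the knockout cerebellar arrays (2.19 to 2.25) all lay below the control cerebral ones (highest 2.36). The 17 endothelial markers tested were bright, with a median level of 13.7 log2, and RNA of other brain cells was present beside them. Microglia (Ctss at 14.82, C1qb at 14.57 on average in control cerebral vessels), astrocytes (9 of 10 markers tested, Gja1 at 14.10), oligodendrocytes (Mbp at 12.62), choroid plexus (Ttr at 16.08) and neurons (6 of 10 markers tested, Stmn2 at 10.01) had markers above the median. The neuron markers Tubb3, Nefm and Syn1, the astrocyte marker Gfap and all 5 leukocyte markers with a probe set lay at or under 3.27 on every array.

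The stretch of DNA just before the start of these genes is where their switches sit, so the promoters that carry the best known of them are shown first. RefSeq promoters (GRCm38.p6) were on hand for 30 members, and the 250 bases before each start were searched on both strands, a gene with several starts counting once, at the start with the most matches. No promoter was on hand for Fosl1, Egr1, Egr3, Ier2, Cebpd and Myc. Sites further from the start were not searched, so a member without a match here may carry the site elsewhere. The cyclic AMP response element, TGACGTCA, which CREB proteins bind, occurred in 3 of the 30 (Btg2, Dusp1 and Nfkbid) and in 1.77% of 27025 genes. Its core, TGACG or CGTCA, which every full site also contains, occurred in 15 of the 30 and in 19.8% of all genes. At least 4 cores occurred in 0.163% of all genes and in 3 members, which were Nr4a1, Nr4a2 and Nr4a3, with 4 each. The 250 bases before the start of each of these genes read as follows, 5′ to 3′ on the gene's own strand, with the cores in capitals; the windows are chr15:101266596-101266845 (plus strand) for Nr4a1, chr2:57124004-57124253 (minus) for Nr4a2 and chr4:48045055-48045304 (plus) for Nr4a3.
Nr4a1: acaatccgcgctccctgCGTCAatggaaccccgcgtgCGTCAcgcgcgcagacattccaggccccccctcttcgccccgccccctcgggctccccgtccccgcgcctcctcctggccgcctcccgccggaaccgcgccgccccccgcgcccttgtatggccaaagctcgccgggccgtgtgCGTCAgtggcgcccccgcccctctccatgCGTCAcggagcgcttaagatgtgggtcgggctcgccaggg
Nr4a2: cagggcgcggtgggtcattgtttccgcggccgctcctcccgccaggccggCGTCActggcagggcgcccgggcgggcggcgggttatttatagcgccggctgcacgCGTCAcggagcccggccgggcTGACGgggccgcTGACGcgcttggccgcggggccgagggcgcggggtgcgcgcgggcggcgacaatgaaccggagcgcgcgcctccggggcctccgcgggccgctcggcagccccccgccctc
Nr4a3: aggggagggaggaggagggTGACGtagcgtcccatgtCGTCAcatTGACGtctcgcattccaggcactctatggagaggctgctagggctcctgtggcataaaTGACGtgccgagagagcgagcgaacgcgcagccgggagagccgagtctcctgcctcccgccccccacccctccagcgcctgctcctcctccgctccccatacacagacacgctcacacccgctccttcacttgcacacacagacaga

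Shorter windows show single sites of the other kinds. In Btg2 (chr1:134079294-134079341, minus) and Dusp1 (chr17:26508588-26508635, minus) the full cyclic AMP element lay 166 and 143 bases before the start. The CArG box, bound by serum response factor and searched by that name's consensus, occurred in 1.62% of all genes and in 2 of the 30 members searched, Zfp36 (chr7:28379257-28379306, minus) and Egr2 (chr10:67537474-67537523, plus, at 1 of its RefSeq starts), 58 and 72 bases before the start. A pair of heat shock units, TTCNNGAA or GAANNTTC, occurred in 14.55% of all genes and in 8 of the 30 members, which were Hspa1a, Hspa1b, Hspb1, Hsph1, Fosl2, Jun, Egr2 and Nfkbid. Capitals mark the site in each window.
Btg2: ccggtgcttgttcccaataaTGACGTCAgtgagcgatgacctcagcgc
Dusp1: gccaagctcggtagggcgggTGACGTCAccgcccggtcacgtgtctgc
Zfp36: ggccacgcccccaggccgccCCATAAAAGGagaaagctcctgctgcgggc
Egr2: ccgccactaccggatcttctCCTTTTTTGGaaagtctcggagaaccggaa
Hspa1a: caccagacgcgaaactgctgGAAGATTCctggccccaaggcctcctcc
Hspa1b: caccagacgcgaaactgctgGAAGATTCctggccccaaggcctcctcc

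The Hspa1a and Hspa1b windows (chr17:34972233-34972280 and chr17:34959315-34959362, both minus, heat shock pair 104 bases before the start) are the same, letter for letter, and the full 250 bases before the 2 starts differ at 3 positions (98.8% identical). The encoded HSP70 proteins and their transcripts are near-identical copies as well, so the array may not tell the 2 genes apart. All matches are descriptions of letters in these windows, and no binding was measured.

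**Figure D1:**
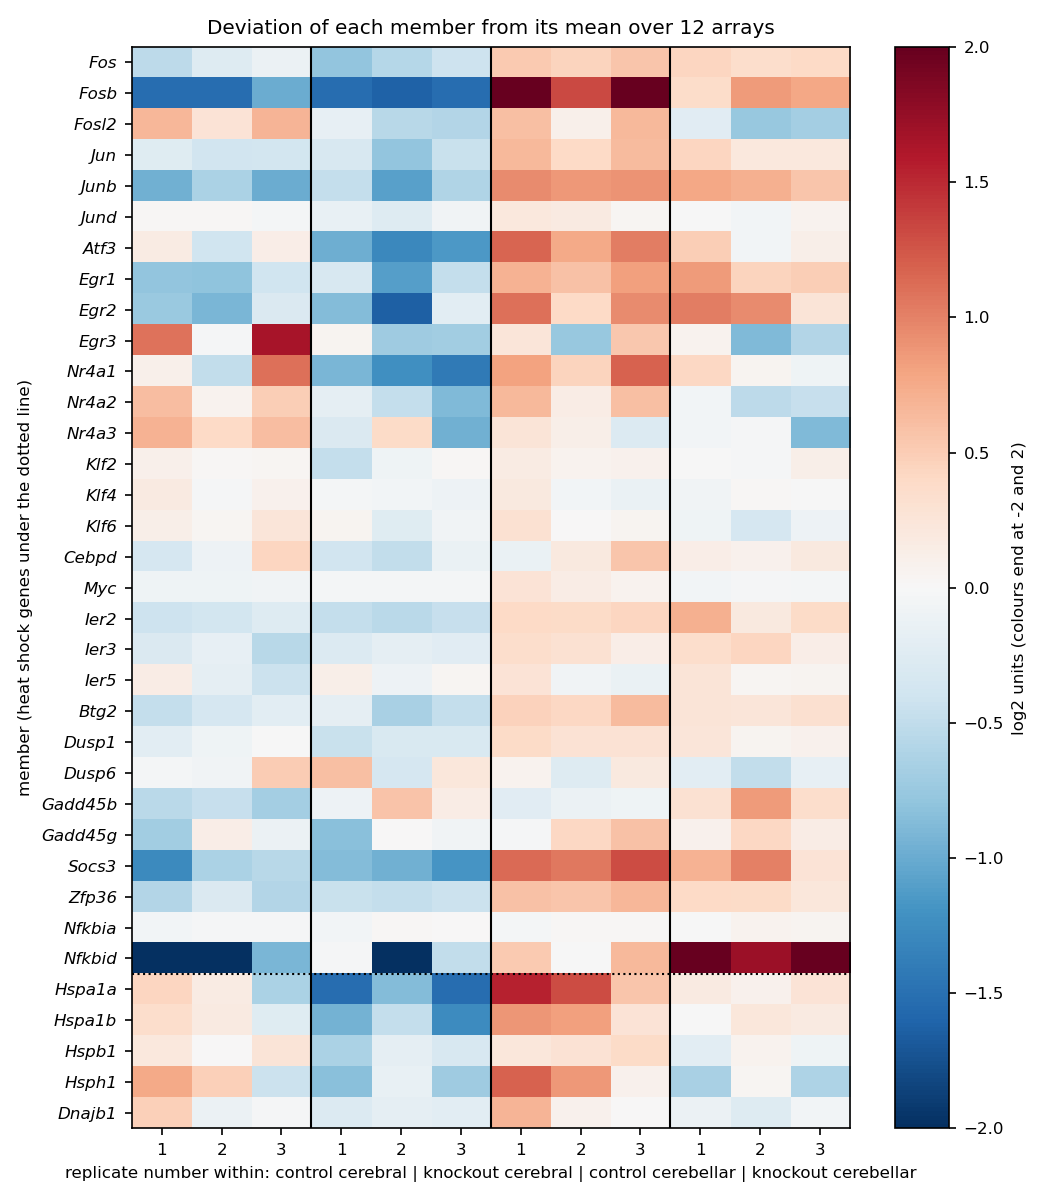
Each row is 1 of the 35 members tested and each column 1 array (replicates 1 to 3 of the 4 groups); colour gives the log2 level minus that gene's mean over the 12 arrays, and colours end at -2 and 2. The 6 cerebellar arrays on the right are warmer than the 6 cerebral arrays for most AP-1, EGR, IER and feedback genes, and the mean deviation of the heat shock genes under the dotted line is lowest on the 3 knockout cerebral arrays (-0.84 to -0.37).

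The first comparison asked how the vessels of the cerebellum differ from those of the cerebrum in the same mice, taking the replicate number as the mouse. The test reported did not pair the regions of a mouse. Fosb passed the filter through its cerebellar arrays alone, so it had to differ and is left out of the regional counts. Of the 34 other members tested, 11 rose in the cerebellar vessels of control mice and 0 fell, against 1.95% and 0.333% of all genes tested (2.29% called in all), where called means an adjusted p under 0.05 with limma and Benjamini-Hochberg adjustment over all genes. All 11 were immediate early genes, of 29 tested, and 18 of these 29 did not pass. In knockout mice 15 of 34 rose (13 immediate early and 2 heat shock genes) and 0 fell, against 3.84% and 2.96% of all genes (6.80% called in all). The 11 members called in controls were all among the 15 called in knockouts (100% of the first list and 73.3% of the second). The 2 comparisons use different arrays, but they come from 1 fit with a shared estimate of spread per gene. The 2 lists of calls are therefore not independent. The median log2 difference of the 34 was 0.43 in controls and 0.48 in knockouts, beside -0.02 and 0.00 over all genes. Counted mouse by mouse, 25 of the 34 were higher in the cerebellum of 6 of 6 mice (13.1% of all genes were), and 1, Fosl2, was higher in 0 of 6.

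**Figure D2:**
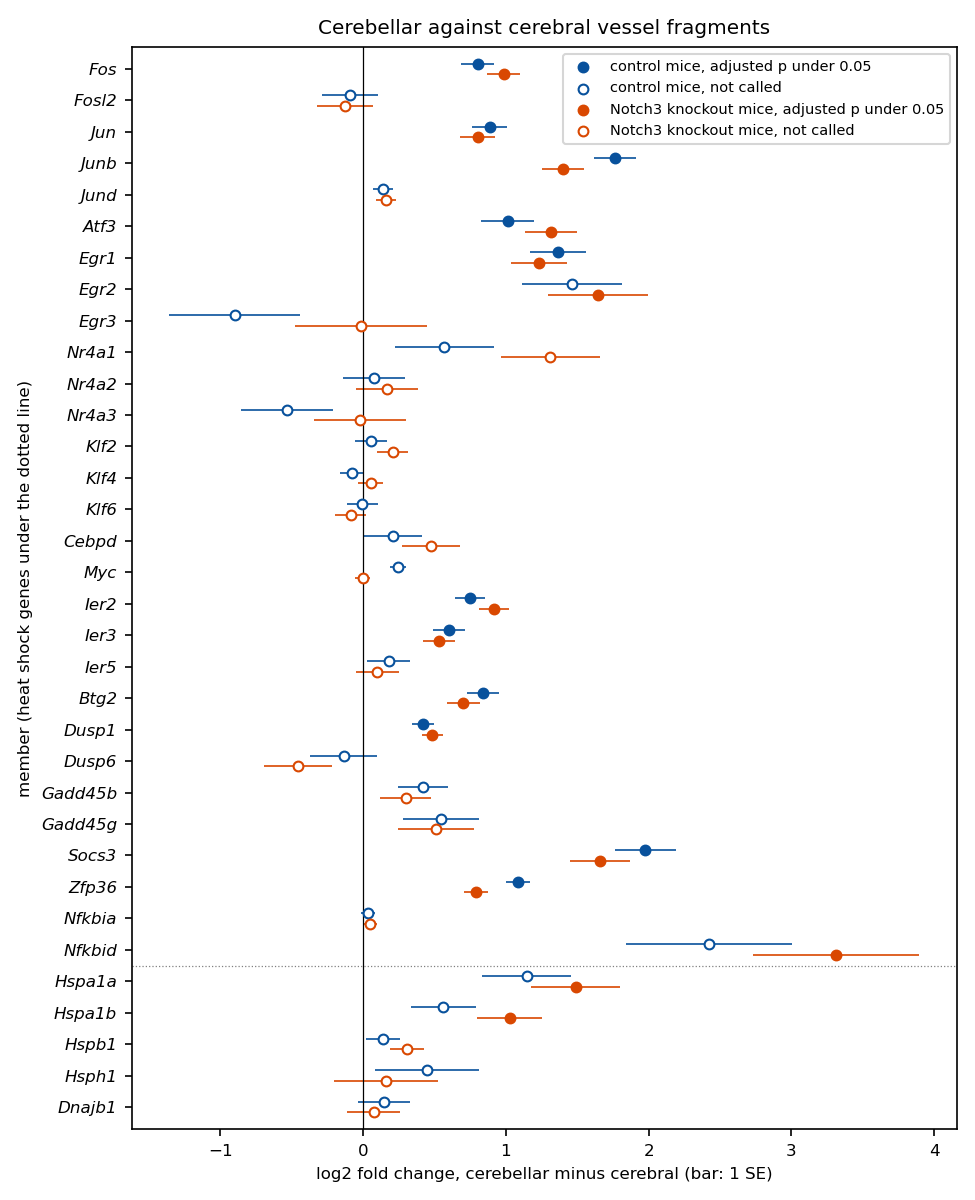
Points give the log2 difference, cerebellar minus cerebral, of each member in control mice (blue) and in Notch3 knockout mice (orange), with bars of 1 SE and filled points where the adjusted p is under 0.05; Fosb is not plotted. Filled points all lie to the right of 0, from 0.42 (Dusp1) to 1.98 (Socs3) in controls and from 0.49 (Dusp1) to 3.32 (Nfkbid) in knockouts.

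Of the AP-1 genes, whose products pair up to form the AP-1 transcription factor, 4 of the 6 other than Fosb rose in the cerebellum of each genotype: Fos, Jun, Junb and Atf3. Junb read 9.09, 9.41 and 9.06 in control cerebral vessels and 11.00, 10.91 and 10.94 in control cerebellar vessels; in knockouts it read 9.58, 8.96 and 9.45 against 10.82, 10.77 and 10.60. The regions did not overlap in either genotype, and the rise was 3.40-fold in controls (log2 1.76, SE 0.15, adjusted p = 0.000552) and 2.64-fold in knockouts (log2 1.40, SE 0.15, adjusted p = 0.00131). Fos, the founding AP-1 gene, read 14.19, 14.46 and 14.60 in control cerebral and 15.23, 15.15 and 15.27 in control cerebellar vessels, a rise of 0.80 (SE 0.11, adjusted p = 0.00747), and the knockout values of 13.92, 14.15 and 14.30 against 15.14, 15.06 and 15.12 gave 0.98 (SE 0.11, adjusted p = 0.00151). The cerebellar values of Fos lay between 15.06 and 15.27 in all 6 mice, above the highest cerebral value of 14.60. Jun rose by 0.89 (SE 0.12) and 0.80 (SE 0.12) in controls and knockouts, and Atf3, a stress-induced repressor, by 1.01 (SE 0.18) and 1.32 (SE 0.18).

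Fosb, a partner of Jun proteins that is induced by stimulation, was dim in cerebral vessels. It read 2.72, 2.73 and 3.27 in control cerebral vessels and 2.73, 2.64 and 2.72 in knockout cerebral vessels, all at or under the median of all values, and 6.96, 5.57 and 6.94 (control) and 4.63, 5.11 and 5.03 (knockout) in cerebellar vessels. It was thus above that median on the cerebellar arrays alone, and it passed the filter through them, so its regional difference is given as a description with no test. The cerebral side gives only a bound, and the cerebellar level was at least 9.34-fold higher in controls and at least 3.15-fold higher in knockouts. The other members of this family moved little: Jund, the AP-1 subunit least dependent on stimulation, differed by 0.14 and 0.16 and Fosl2 by -0.09 and -0.13 in controls and knockouts, and none of these passed the test.

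The EGR genes encode zinc finger factors that act downstream of growth factor signals. Egr1 read 11.54, 11.52 and 11.92 in control cerebral and 13.01, 12.91 and 13.15 in control cerebellar vessels, and 11.99, 11.22 and 11.84 against 13.17, 12.77 and 12.81 in knockouts. The regions did not overlap, and Egr1 rose 2.57-fold in controls (log2 1.36, SE 0.20, adjusted p = 0.00795) and 2.35-fold in knockouts (log2 1.23, SE 0.20, adjusted p = 0.00581). Egr2 read 7.83 to 8.45 against 9.14 to 9.84 in controls, a difference of 1.47 that did not pass (SE 0.35, adjusted p = 0.0626); its other probe set, called when each probe set was tested on its own, gave 1.93 (SE 0.38, adjusted p = 0.0351). It read 7.11 to 8.53 against 8.998 to 9.77 in knockouts, where Egr2 rose by 1.65 (SE 0.35, adjusted p = 0.0209). Egr3 went the other way in controls: it read 11.49, 10.39 and 12.06 in cerebral and 10.65, 9.66 and 10.94 in cerebellar vessels, lower in the cerebellum of each of 3 mice although the groups overlap (-0.90, SE 0.46, adjusted p = 0.402, and 0.00365 with the mouse as a block). In knockouts Egr3 differed by -0.01.

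The NR4A genes encode orphan nuclear receptors induced by cyclic AMP. Of the 3, 0 passed the test in either genotype (limma; 0 in controls and 1 in knockouts at an unadjusted p under 0.05), and their differences ran from -0.53 (Nr4a3) to 0.57 (Nr4a1) in controls and from -0.02 (Nr4a3) to 1.31 (Nr4a1) in knockouts. For Nr4a1 the knockout arrays did not overlap, with 10.08, 9.77 and 9.58 in cerebral and 11.40, 11.05 and 10.91 in cerebellar vessels (SE 0.35, adjusted p = 0.0506, and 0.00239 with the mouse as a block). The 5 genes Klf2, Klf4, Klf6, Cebpd and Myc did not pass either (1 of 5 in each genotype at an unadjusted p under 0.05). Klf2 and Klf4, the flow-responsive factors of endothelium, differed by 0.06 and -0.08 in controls and 0.21 and 0.05 in knockouts, Klf6 by -0.09 in knockouts, and Cebpd differed by 0.21 and 0.48 (adjusted p = 0.209 in knockouts, and 0.00582 with the mouse as a block). Myc, the growth regulator, read 4.06 to 4.12 on the 9 arrays outside control cerebellum and 4.42, 4.29 and 4.22 within it (0.25, SE 0.06, adjusted p = 0.0508).

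Of the 3 IER genes, which belong to the same early wave, Ier2 and Ier3 rose in both genotypes and Ier5 did not pass. Ier2 read 12.20, 12.25 and 12.35 against 13.01, 13.005 and 13.04 in controls (0.75, SE 0.11, adjusted p = 0.00747) and 12.14, 12.08 and 12.16 against 13.32, 12.81 and 13.003 in knockouts (0.92, SE 0.11, adjusted p = 0.00151). Ier3 rose by 0.60 and 0.53 (SE 0.11 each). Every cerebellar array exceeded every cerebral array of its genotype for both genes.

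Among the 9 genes that restrain signalling, Btg2, Dusp1, Socs3 and Zfp36 rose in both genotypes, and Nfkbid passed in knockouts. Socs3, which blocks cytokine signals through JAK and STAT, read 10.19, 10.83 and 10.91 in control cerebral and 12.59, 12.51 and 12.76 in control cerebellar vessels, and 10.60, 10.49 and 10.29 against 12.15, 12.47 and 11.74 in knockouts. This was a 3.94-fold rise in controls (log2 1.98, SE 0.21, adjusted p = 0.00216) and a 3.16-fold rise in knockouts (log2 1.66, SE 0.21, adjusted p = 0.00231), with no overlap. Its 3 probe sets, all called, differed in size, from 1.98 to 3.69 in controls and from 1.66 to 2.47 in knockouts, the largest from a dim probe set (mean 4.25 over the 12 arrays). Zfp36, which speeds the decay of early mRNAs, had the smallest adjusted p of the members in controls: 12.40, 12.70 and 12.39 against 13.56, 13.54 and 13.64, a rise of 1.08 (SE 0.09, adjusted p = 0.000534), and 0.79 (SE 0.09, adjusted p = 0.00131) in knockouts. Btg2, a brake on cell division, rose by 0.84 and 0.70, and Dusp1, a phosphatase of MAP kinases, by 0.42 and 0.49. Gadd45g, Gadd45b, Dusp6 and Nfkbia did not pass, and Nfkbia, the bright inhibitor of NF-kappaB, read 15.33 to 15.46 on all 12 arrays.

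Nfkbid, a nuclear relative of that inhibitor, covered a wide range. It read 2.20, 2.05 and 3.80 in control cerebral and 5.25, 4.71 and 5.37 in control cerebellar vessels, with 2 of the 3 cerebral arrays at or under 3.27, and the difference of 2.42 did not pass (SE 0.58, adjusted p = 0.0640, and 0.00499 with the mouse as a block). In knockouts it read 4.70, 2.74 and 4.23 against 7.72, 6.43 and 7.46, with 1 cerebral array at or under 3.27, a log2 rise of 3.32 (SE 0.58, adjusted p = 0.00896) that is not exact for that reason. The regions did not overlap in either genotype.

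Heat shock genes shared the direction. All 5 had higher means in the cerebellum of both genotypes (median difference 0.45 in controls and 0.31 in knockouts). Of these, 4 were higher in 6 of 6 mice. With limma, 0 of 5 passed in controls (2 at an unadjusted p under 0.05), and 2 of 5, Hspa1a and Hspa1b, rose in knockouts. The array may not tell these 2 genes apart. Hspa1a, the stress-induced HSP70 chaperone, read 11.39, 11.11 and 10.32 against 12.50, 12.26 and 11.51 in controls (1.15, SE 0.31, adjusted p = 0.0974, and 0.00809 with the mouse as a block). In knockouts it read 9.43, 10.09 and 9.43 against 11.14, 11.04 and 11.23, a 2.81-fold rise (log2 1.49, SE 0.31, adjusted p = 0.0198). Neither pair of groups overlaps, and within controls the 2 regions of mouse 3 were each the lowest of their group. Hspa1b rose by 1.03 in knockouts (SE 0.23, adjusted p = 0.0252) and differed by 0.56 in controls (adjusted p = 0.275, and 0.0475 with the mouse as a block). Hspb1, the small chaperone HSP27, Hsph1, a nucleotide exchange factor for HSP70, and Dnajb1, its HSP40 partner, differed by 0.14, 0.45 and 0.15 in controls and by 0.31, 0.16 and 0.07 in knockouts, none of them called.

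With the mouse as a block, 17 of the 34 members other than Fosb were called in controls (14 immediate early and 3 heat shock) and 19 in knockouts (16 and 3), beside 7.81% and 14.7% of all genes in the same fits. The added calls in controls were Nfkbid, Hspa1a, Hspa1b, Hsph1, Gadd45b and, lower, Egr3 (adjusted p = 0.00587 for Hsph1 and 0.0199 for Gadd45b). In knockouts they were Nr4a1, Cebpd, Hspb1 (adjusted p = 0.0319) and Gadd45b (adjusted p = 0.0397). Leaving out single arrays took the count, here with Fosb and so 12 and 16 as fitted, to between 9 and 12 in controls and between 12 and 16 in knockouts. Ier3 lost its call in controls without control cerebral 1 or 3 or control cerebellar 1 or 2, Dusp1 without control cerebral 1 or any control cerebellar array, and Atf3 without control cerebellar 1 or 3 (highest adjusted p over all alternatives 0.104, 0.0708 and 0.0744). In knockouts the calls of Egr2 (lost without knockout cerebral 1, or cerebellar 1 or 2), Ier3 (also without cerebral 3), Hspa1a (without cerebral 1 or 3 or any cerebellar array) and Hspa1b (without cerebral 1 or 3, or cerebellar 2 or 3) depended on single arrays, with highest adjusted p of 0.0985, 0.0770, 0.0816 and 0.0889.

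Markers of several cell types moved with region. Pericyte markers rose in 7 of 10 tested cases in controls and 9 of 10 in knockouts, with a summed level (log2) of 16.40 to 16.50 in control cerebral against 16.75 to 16.92 in control cerebellar vessels, and 16.23 to 16.26 against 16.57 to 16.67 in knockouts. Fibroblast markers rose in 3 and 4 of 8 cases (summed level 12.60 to 12.88 against 13.07 to 13.41 in controls, 12.98 to 13.09 against 13.26 to 13.73 in knockouts), and cerebellar neuron markers in 2 and 6 of 8. Some of these rises may have been fixed by the filter. Dpt, a fibroblast marker called in controls, had a mean above the median of all values in control cerebellar vessels alone (3.65, against 2.40 in control cerebral ones). Of the neuron markers called in knockouts, Pvalb, Calb1 and Pcp2 had such means in cerebellar vessels alone. In knockouts their means were 4.94, 5.06 and 3.86 in cerebellar against 2.25, 3.04 and 2.81 in cerebral vessels. Microglia markers were called lower in the cerebellum in 0 of 14 cases in controls (8 at an unadjusted p under 0.05) and 12 of 14 in knockouts (summed level 17.14 to 17.56 against 16.65 to 16.72). Endothelial markers were called in 0 of 17 in either genotype (2 in each at an unadjusted p under 0.05). The part of these cell types in the regional differences was not tested, and in bulk RNA more cells of a type cannot be told apart from more RNA per cell.

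The second comparison asked what the loss of Notch3 did to these genes in cerebral vessels. Several heat shock and NR4A genes were lower in the knockouts: 7 members fell, Nr4a1, Hspa1a, Atf3, Hspa1b, Fosl2, Nr4a2 and Hspb1, and 1 rose, Gadd45b, against 3.93% and 2.45% of all genes (6.38% called in all). Of the 35 members tested 25 had a negative difference, with a median of -0.21 beside -0.01 over all genes. Counted by arrays that do not overlap, in 13 members every knockout array lay below every control array (14.3% of all genes), and in 2, Myc and Gadd45b, every knockout array lay above (10.1% of all genes).

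**Figure D3:**
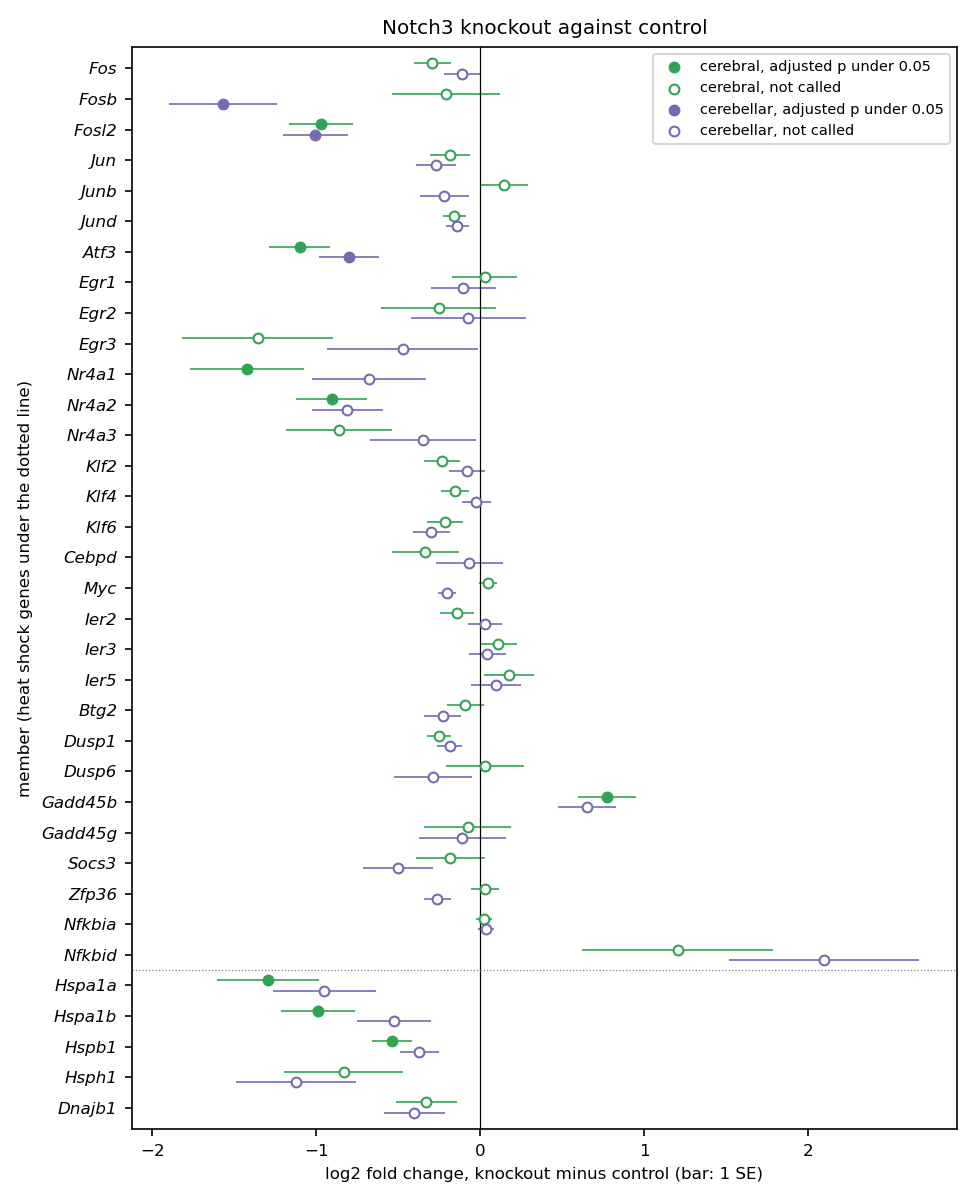
Points give the log2 difference, knockout minus control, of each member in cerebral (green) and cerebellar (purple) vessels, with bars of 1 SE and filled points where the adjusted p is under 0.05. The 5 heat shock genes under the dotted line lie left of 0 in both regions, from -0.33 (Dnajb1) to -1.29 (Hspa1a) in cerebral vessels, and Gadd45b is the called gene on the right (0.77).

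Atf3, a member of the ATF and CREB family that is induced by many stresses, read 9.72, 9.16 and 9.69 on the control cerebral arrays and 8.58, 8.27 and 8.41 on the knockout ones. The groups did not overlap, and Atf3 fell 2.15-fold (log2 -1.10, SE 0.18, adjusted p = 0.00653); it was called under 23 of 23 alternatives. Fosl2, another AP-1 gene, read 12.56, 12.17 and 12.57 against 11.73, 11.34 and 11.31, a 1.96-fold fall without overlap (log2 -0.97, SE 0.20, adjusted p = 0.0164). The remaining AP-1 genes did not pass: Fos differed by -0.29 (adjusted p = 0.174), Jun by -0.19, Jund by -0.16 and Junb by 0.14, and Fosb lay at or under 3.27 in both groups. Egr1 differed by 0.03 and Egr2 by -0.25.

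All 3 NR4A genes lay lower in knockout cerebral vessels with no overlap, as did 14.3% of all genes, and 2 were called. Nr4a1 read 11.09, 10.50 and 12.10 in controls and 10.08, 9.77 and 9.58 in knockouts, a 2.68-fold fall (log2 -1.42, SE 0.35, adjusted p = 0.0384), with control mouse 3 the highest array. Nr4a2 read 11.70, 11.15 and 11.58 against 10.90, 10.61 and 10.20, a 1.87-fold fall (log2 -0.91, SE 0.22, adjusted p = 0.0351). Of its 4 probe sets that passed the filter 3 were called, and the 4 ranged from -1.26 to -0.49. Nr4a3 read 9.20, 8.91 and 9.13 against 8.21, 8.89 and 7.54 and did not pass (-0.86, SE 0.32, adjusted p = 0.162). Egr3 read 11.49, 10.39 and 12.06 against 10.46, 9.69 and 9.72, a difference of -1.36 with overlapping groups (SE 0.46, adjusted p = 0.120).

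The heat shock genes were all lower, and 3 of 5 were called. Among these 3 are Hspa1a and Hspa1b, which the array may not tell apart. Hspa1a read 11.39, 11.11 and 10.32 in controls and 9.43, 10.09 and 9.43 in knockouts, 2.45-fold lower (log2 -1.29, SE 0.31, adjusted p = 0.0362). Hspa1b read 13.54, 13.37 and 12.93 against 12.24, 12.71 and 11.92, 1.99-fold lower (log2 -0.99, SE 0.23, adjusted p = 0.0296), and its 3 probe sets, all called, gave -1.27 to -0.99. Hspb1 read 13.19, 12.99 and 13.24 against 12.34, 12.80 and 12.65, 1.45-fold lower (log2 -0.54, SE 0.12, adjusted p = 0.0263). These 3 genes showed no overlap between genotypes (14.3% of all genes lay lower without overlap). The narrowest gap for Hspa1a and Hspa1b lay between control mouse 3 and knockout mouse 2, the 2 mice without Xist. Hsph1 read 11.87, 11.59 and 10.68 against 10.27, 10.97 and 10.40, overlapping (-0.83, SE 0.36, adjusted p = 0.224), and Dnajb1 differed by -0.33 (SE 0.18, adjusted p = 0.356).

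Gadd45b, a stress sensor that binds MAP kinase kinases, was the member that rose. It read 8.75, 8.83 and 8.61 in controls and 9.19, 9.88 and 9.44 in knockouts, a 1.71-fold rise with no overlap (log2 0.77, SE 0.18, adjusted p = 0.0299), and its other probe set gave 0.80. The other feedback genes did not pass: Nfkbid differed by 1.20 (SE 0.58, adjusted p = 0.278), Dusp1 by -0.25 (SE 0.07, adjusted p = 0.0736) and the other 6 by -0.18 (Socs3) to 0.03 (Zfp36, Dusp6). The KLF, CEBP and MYC group and the IER group had 0 of 5 and 0 of 3 called with limma, and 0 in each at an unadjusted p under 0.05. For Klf6, an injury-responsive zinc finger factor, the probe sets disagreed: the brightest gave -0.22 (SE 0.11, adjusted p = 0.307), while 2 of its 5 probe sets were called when each probe set was tested on its own, down to -1.17, and for Klf4 the brightest gave -0.15 and the other, called, gave -0.58.

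**Figure D4:**
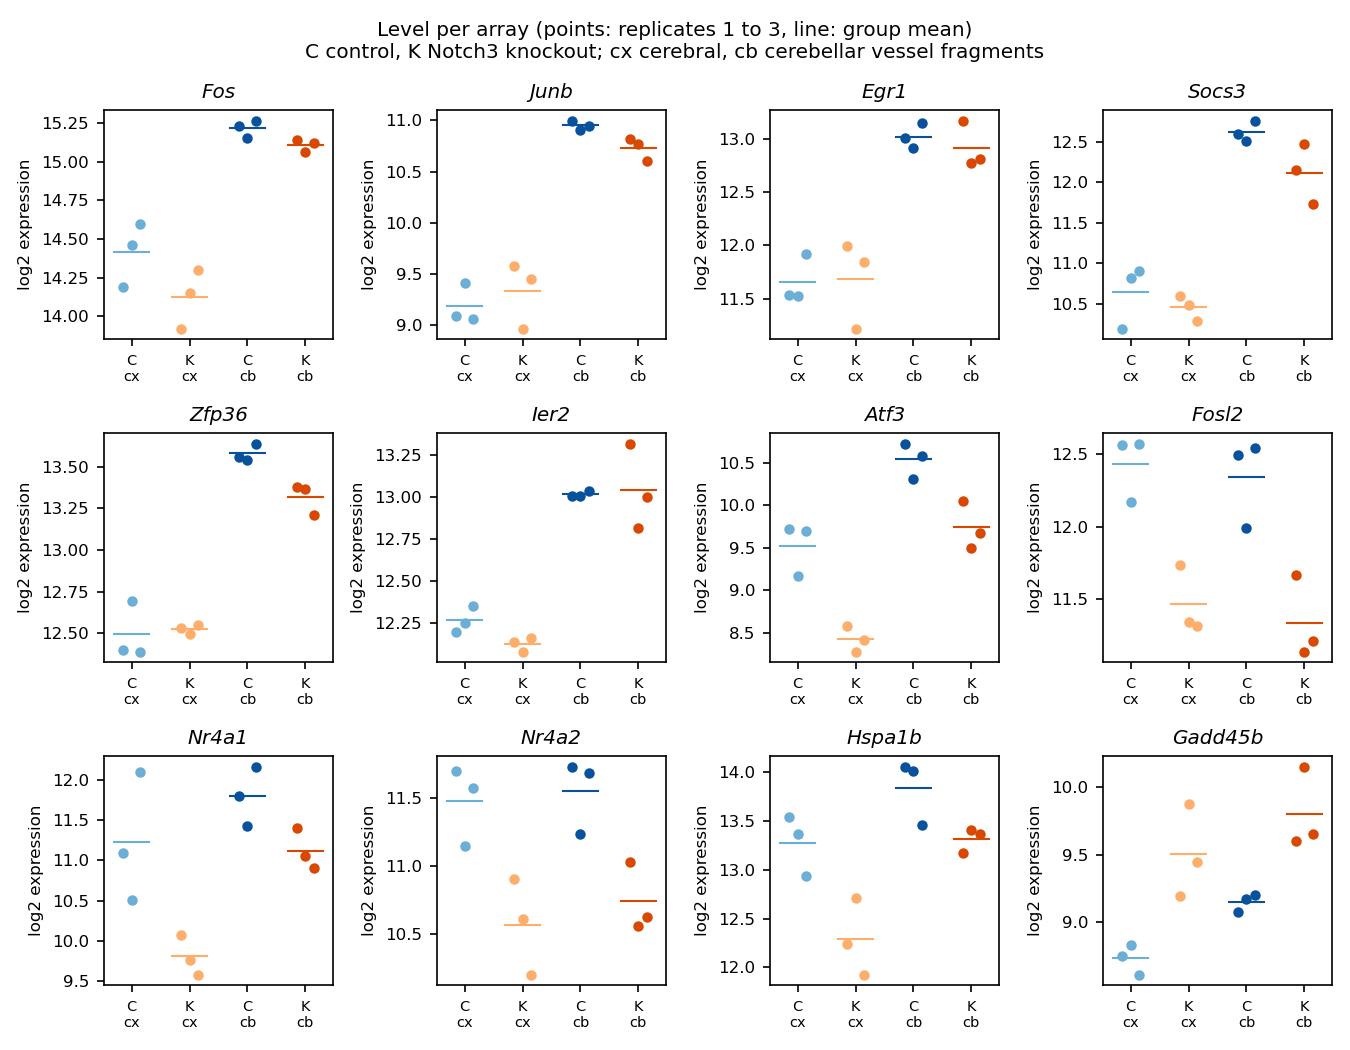
Each panel shows 1 member, with 1 point per array (log2 expression, replicates 1 to 3 from left to right) and a line at each group mean; C and K are control and knockout, cx and cb cerebral and cerebellar vessels. Fos, Junb, Egr1, Socs3, Zfp36 and Ier2 separate by region, Fosl2 and Nr4a2 separate by genotype, and Atf3 differs in both ways; Hspa1b overlaps between the regions of controls.

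In cerebellar vessels the same comparison gave 3 members that fell, Fosb, Fosl2 and Atf3, and 0 that rose (limma; 16 of 35 at an unadjusted p under 0.05 in either direction), against 3.17% and 1.06% of all genes (4.22% called in all). Of the 35 tested, 29 had a negative difference (median -0.23 beside 0.01 over all genes). Every knockout array lay below every control array in 18 members (11.7% of all genes) and above in 2, Gadd45b and Nfkbid (10.4%). Atf3 and Fosl2 were the members called in both regions (25% of the cerebral and 66.7% of the cerebellar calls). The 2 comparisons use different arrays of the same 6 mice and share the estimate of spread per gene, so they are not independent.

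Fosl2 read 12.49, 11.99 and 12.54 in control and 11.67, 11.13 and 11.21 in knockout cerebellar vessels, a 2.01-fold fall (log2 -1.01, SE 0.20, adjusted p = 0.0175). Atf3 read 10.73, 10.31 and 10.58 against 10.05, 9.50 and 9.67, a 1.74-fold fall (log2 -0.80, SE 0.18, adjusted p = 0.0378). Neither gene overlapped between genotypes. Fosb, whose values are given above, fell 2.97-fold (log2 -1.57, SE 0.33, adjusted p = 0.0238), with control mouse 2 the nearest to the knockouts.

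The heat shock and NR4A genes lay below the controls here too, without passing the test (limma; 4 of 5 and 1 of 3 at an unadjusted p under 0.05). All 5 heat shock genes lay lower with no overlap between genotypes, as did 11.7% of all genes. The lowest control and highest knockout array were close for Hsph1 (11.20 and 11.16), Hspa1b (13.46 and 13.41) and Dnajb1 (12.66 and 12.60). The differences were -1.12 (Hsph1, SE 0.36, adjusted p = 0.135), -0.95 (Hspa1a, SE 0.31, adjusted p = 0.141), -0.53 (Hspa1b), -0.40 (Dnajb1) and -0.37 (Hspb1). Nr4a2 read 11.73, 11.24 and 11.69 against 11.03, 10.56 and 10.63 (-0.81, SE 0.22, adjusted p = 0.0713), and 1 of its 4 probe sets was called when tested on its own (-1.30). Nr4a1 differed by -0.68 and Nr4a3 by -0.35. Gadd45b read 9.08, 9.18 and 9.21 against 9.61, 10.15 and 9.65 (0.65, SE 0.18, adjusted p = 0.0771), and Nfkbid 5.25, 4.71 and 5.37 against 7.72, 6.43 and 7.46 (2.10, SE 0.58, adjusted p = 0.0828). Socs3 differed by -0.50 (SE 0.21, adjusted p = 0.264) and Zfp36 by -0.26 (SE 0.09, adjusted p = 0.138), with no overlap for either.

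When the 2 regions of each mouse were averaged first (3 mice per genotype), Atf3 fell by 0.95 (SE 0.17, adjusted p = 0.0350) and Fosl2 by 0.99 (SE 0.18, adjusted p = 0.0407), and no member rose (4.03% of all genes were called in either direction). Of the 35 members 30 had a negative difference. Dusp1 (-0.22, SE 0.04, adjusted p = 0.0562), Gadd45b (0.71, SE 0.16, adjusted p = 0.0735), Nr4a2 (-0.86, SE 0.19, adjusted p = 0.0738) and Hspb1 (-0.46, SE 0.10, adjusted p = 0.0796) came next. With Xist as a covariate, added after the data had been seen, neither gene was called on the mouse means.

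Single arrays carried many of the knockout calls. In cerebral vessels 1 member, Atf3, was called without control replicate 1 or without knockout replicate 3. Without control replicate 3 the calls were Atf3, Hspa1a and Hspa1b (3 members), and without knockout replicate 1 they were Atf3, Fosl2, Nr4a2 and Gadd45b (4 members). A fit on the 6 cerebral arrays alone called 2 members, and the fit without a filter also 2. In cerebellar vessels 0 were called without control replicate 1 or knockout replicate 3, 1 (Myc) without control replicate 3 and 1 (Fosb) without knockout replicate 2. On the mouse means 0 were called without control mouse 1 or knockout mouse 3, 1 (Fosl2) without knockout mouse 1, 1 (Gadd45b) without knockout mouse 2, and 2 (Hspa1a and Hspa1b) without control mouse 3.

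Vessel wall markers moved with genotype. Smooth muscle markers fell in 9 of 11 cases in each region, with a summed level of 16.12 to 16.36 in control against 15.40 to 15.58 in knockout cerebral vessels and 16.30 to 16.58 against 15.53 to 15.69 in cerebellar vessels. Pericyte markers fell in 6 of 10 cerebral and 5 of 10 cerebellar cases (16.40 to 16.50 against 16.23 to 16.26, and 16.75 to 16.92 against 16.57 to 16.67). Microglia markers rose in 8 of 14 cases in cerebral vessels (16.53 to 16.95 against 17.14 to 17.56) and in 0 of 14 in cerebellar vessels (1 at an unadjusted p under 0.05). Cerebellar neuron markers rose in 3 of 8 cases in cerebellar knockout vessels (Pvalb, Calb1 and Gabra6, with 7 of 8 at an unadjusted p under 0.05 in either direction with limma). Pvalb had a mean above the median of all values in knockout cerebellar vessels alone (4.94, against 3.09 in control cerebellar ones). The filter may thus have fixed the call of Pvalb. The summed level of the cerebellar neuron markers, 13.32 to 13.44 in controls and 12.81 to 13.23 in knockouts, came almost wholly from Zic1 (means 13.33 and 12.83). Zic1 lay lower in cerebellar knockout vessels without being called (-0.50), and it was the 1 marker of this list that fell in cerebral ones. Fibroblast markers had 1 higher and 1 lower in each region. The lower one in cerebellar vessels was Dpt, with a mean of 3.65 in control cerebellar vessels and 2.40 to 2.42 in the other groups. Only the first of these means exceeds the median of all values, so the filter may have fixed this call. The part of these cell types in the differences of these genes was not tested. The 4 members Dusp1, Hspa1a, Hspa1b and Ier3 lie within 20 Mb of Notch3 on chromosome 17, a stretch where 9.71% of the 381 tested genes were called in cerebral and 8.92% in cerebellar vessels, beside 6.38% and 4.22% of all genes; for Hspa1a and Hspa1b the loss of Notch3 and any other difference carried along with that stretch cannot be told apart.

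Whether the knockout effect differs between the regions was tested as an interaction. With limma, 0 of 35 members were called for the difference between the cerebellar and the cerebral knockout effect (lowest adjusted p = 0.999), beside 0.0427% of all genes. Those with an unadjusted p under 0.05 were 3: Fosb (-1.36, SE 0.46), Myc (-0.25, SE 0.08) and Zfp36 (-0.29, SE 0.12). No alternative that gave this comparison called a member, which does not show that the effects are equal: the interval of 2 SE around the difference of Hspa1a, for example, runs well past 0 on both sides (0.34, SE 0.44).

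The last comparison set the heat shock genes against the immediate early genes on each array. Each array was scored by the mean deviation of the genes of a class from their own means over the 12 arrays, as a description without a test. Hspa1a and Hspa1b, which the array may not tell apart, count separately in the heat shock score. Immediate early scores split by region: 0.28 to 0.52 in control and 0.17 to 0.35 in knockout cerebellar vessels, against -0.33 to -0.05 and -0.56 to -0.36 in cerebral ones. The immediate early score includes Fosb, which passed the filter through its cerebellar arrays alone, so the filter fixed part of this split. Heat shock scores were -0.22 to 0.44 in control cerebral, 0.26 to 0.90 in control cerebellar, -0.84 to -0.37 in knockout cerebral and -0.16 to 0.04 in knockout cerebellar vessels. Knockout arrays thus lay below the control arrays of their region for heat shock genes in both regions, and for immediate early genes in cerebral vessels, while immediate early scores in cerebellar vessels overlapped.

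**Figure D5:**
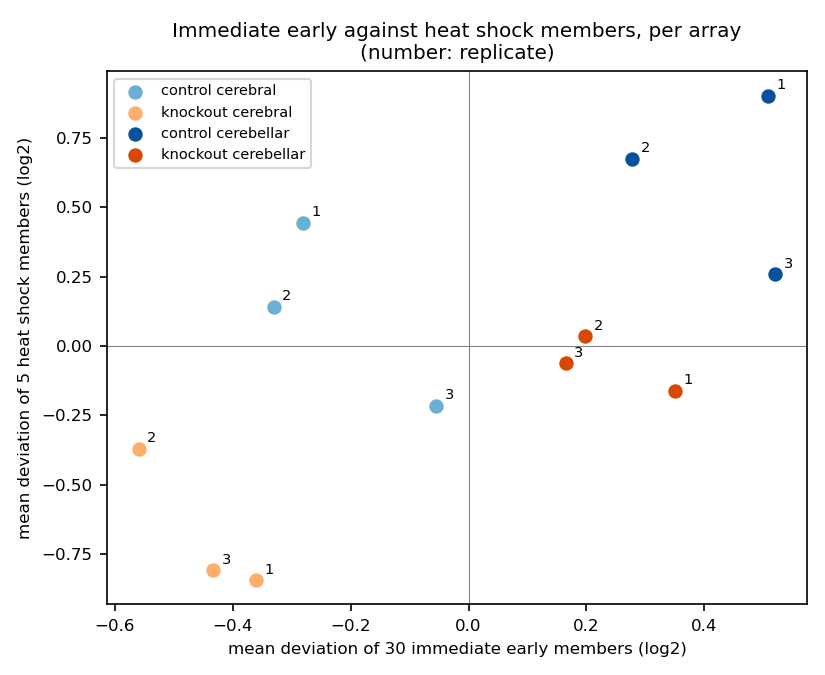
Each point is 1 array, numbered by replicate, with the mean deviation (log2) of the 30 immediate early genes on the x axis and of the 5 heat shock genes on the y axis. The 30 genes include Fosb, which passed the filter through its cerebellar arrays alone. The 6 cerebellar arrays lie right of 0 and the 6 cerebral arrays left of it, and knockout arrays reach from -0.84 to 0.04 on the y axis against -0.22 to 0.90 for controls.

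In the knockouts, heat shock genes lay further below the controls than immediate early genes did, a description with no test. The median knockout difference was -0.83 for the 5 heat shock and -0.17 for the 30 immediate early genes in cerebral vessels, and -0.53 and -0.20 in cerebellar vessels. Taken per mouse, the heat shock score minus the immediate early score differed by -0.52 between knockout and control mice, beside a pooled SD between mice of 0.34 (n = 3 mice per genotype), and leaving out single mice gave -0.76 to -0.37. The groups overlapped array by array: control mouse 3 read -0.16 and -0.26 for this score in its cerebral and cerebellar vessels, below the other control arrays (0.39 to 0.73), and knockout mouse 2 read 0.19 and -0.16, above the other knockout arrays (-0.51 to -0.23). These are the 2 mice without Xist, and with Xist as a covariate the same 8 members were called in cerebral vessels, and the 3 of cerebellar vessels plus Gadd45b (adjusted p = 0.0429).

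Other genes of the same programmes were counted from lists. Of 40 other immediate early genes 34 passed the filter; Arc, Npas4, Egr4, Bdnf, Dusp4 and Dusp5, of which the first 4 are known from active neurons, lay at or under 3.27 on all 12 arrays. In cerebral knockout vessels 3 fell, Ppp1r15a (-0.88, SE 0.16), Errfi1 (-0.81, SE 0.13) and Spry4 (-0.66, SE 0.13), and 1 rose, Zfp36l2 (0.43, SE 0.10), which makes 4 of 34 called beside 6.38% of all genes. In cerebellar knockout vessels Errfi1 (-1.08, SE 0.13) and Ppp1r15a (-0.81, SE 0.16) fell, 2 of 34 beside 4.22% of all genes. Ppp1r15a, which restores translation after stress, and Nfkbiz, another nuclear inhibitor of NF-kappaB, rose in the cerebellum of both genotypes (1.77 and 1.50 in controls, 1.84 and 1.74 in knockouts), joined in knockouts by Ccn1 (1.11) and Spry4 (0.61); this is 2 of 34 beside 2.29% of all genes in controls and 4 of 34 beside 6.80% in knockouts.

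Among 22 other heat shock and chaperone genes, 21 of them tested, Fkbp4, a co-chaperone of HSP90, fell in both regions (-0.31 and -0.36, SE 0.07 each). No other gene of the list was called for genotype. This is 1 of 21 beside 6.38% of all genes in cerebral and 4.22% in cerebellar vessels, near the share over all genes. Their median knockout difference was -0.25 in cerebral and -0.26 in cerebellar vessels, beside -0.01 and 0.01 over all genes. By region, 0 of 21 were called in controls (5 at an unadjusted p under 0.05 with limma). In knockouts Hspa2 rose (0.68, SE 0.17), 1 of 21 beside 6.80% of all genes. Of 12 genes of the endoplasmic reticulum stress response, Hspa5 rose in the cerebellum of controls (0.28) and Xbp1 fell in cerebellar knockout vessels (-0.28). Each is 1 of 12, beside 2.29% and 4.22% of all genes. Of 17 upstream regulators, kinases and factors such as Creb1, Rela and Stat3, 11 were tested and 0 were called in any of the comparisons by region or genotype; with limma, 0 to 3 of them had an unadjusted p under 0.05 in each comparison.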

How the data were processed

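RNA of 12 samples (4 groups of 3) was measured on Affymetrix mouse expression arrays. The authors deposited log2 expression values per probe set, computed with GCRMA 2.32.0, per the submitters' processing notes. They were used as deposited, and the sources used here give no other step. GCRMA corrects background with a model of probe affinity and equalises arrays, which can compress differences of dim probe sets. Of 45101 probe sets, 34958 named 1 gene, 932 named several and 9211 named none. Gene names come from the array's annotation, which names no genome build.

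A probe set was kept where at least 3 of 12 arrays exceeded the median of all values, and the brightest probe set of 1 gene stood for that gene. Two-sided tests used lmFit and eBayes of limma 3.58.1 (R 4.3.3) with 4 group means over 12 arrays, Benjamini-Hochberg adjustment over 11716 genes and a threshold of 0.05. The mean of both regions per mouse was fitted separately. The scripts were tested on simulated data. Levels of different probe sets were not tested against each other. The summed level of a marker list adds the unlogged values of its probe sets and takes the log2 of the sum. Where all dim arrays lay at or under 3.27, the fold is a bound against at least that value.

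All 36 members are reported, with values per array for most called members (up to 12 by size in each comparison), and up to 4 genes of each other list. For some members called by region, such as Jun, Btg2, Dusp1 and Ier3, log2 differences stand in place of values per array. The members, the lists and the tests were chosen with earlier results of these data known. The labels do not say in words that a replicate number marks a mouse. Within a genotype, same-numbered arrays of the regions deviated together (r 0.37 to 0.70), so the replicate number was taken as the mouse. The tests reported did not pair the regions, and values with the mouse as a block, an alternative fit, stand beside the regional results they change. The number of arrays limits the precision. Alternatives covered the filter, probe sets, scaling, variance model, array weights, arrays in the fit, blocks and left-out arrays.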

Additional observations from a re-analysis of the deposited data

How the results depend on the processing

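The regional counts of called members, given here with Fosb, were 10 to 18 in controls (12 in the fit reported) and 13 to 20 in knockouts (16) under 12 alternatives for processing, highest with the mouse as a block. Without Fosb they were 11 and 15, and leaving out arrays gave 9 to 12 and 12 to 16. The counts for the knockout were less stable. In cerebral vessels (8 called) there were 2 without the filter and 2 with only the arrays compared in the fit, and 1 to 6 with an array left out. In cerebellar vessels (3 called) there were 5 with the mean of a gene's probe sets, 6 with array weights, 5 with each probe set on its own and 1 with only the arrays compared, and 0 to 3 with an array left out. On the mouse means (2 called) there were 1 without the filter, 5 with the filter at the 75th percentile (8.45), 4 with the mean of probe sets, 6 with array weights, 4 with each probe set on its own and 0 with Xist as a covariate, and 0 to 3 with a mouse left out. The interaction of genotype and region had 0 calls throughout (3 members at an unadjusted p under 0.05 with limma as reported). The contrast of heat shock against immediate early scores was -0.52 as reported, -0.55 with the mean of probe sets and -0.53 with quantile normalisation, and -0.76 to -0.37 with a mouse left out.

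Across genotypes the replicate numbers did not pair the samples: same-numbered arrays correlated with r of 0.19, 0.18 and 0.01 in cerebral and 0.26, 0.03 and -0.17 in cerebellar vessels. A replicate block gave 9 calls in cerebral and 7 in cerebellar vessels, the mouse as a random block gave 8 and 5, and a replicate block on the mouse means gave 2. The 41 called results of single members were followed through the alternatives. Of these values, 579 kept their direction and their side of the threshold, 110 kept their direction and lost the call, and 0 reversed. Members not called are outside this count. Each probe set on its own, Xist as a covariate, the counts without Fosb and the alternatives for the class scores were chosen after the data had been seen. The causes of these moves were not tested. Probe sets near the median of all values carry little signal over background, which limits Fosb, Fosl1, Myc and Nfkbid, and 3 mice per group limit all results.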

Other observations

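Some values belong to no comparison above. In the knockout comparison the 5 probe sets of Klf6 spanned -1.17 to -0.22 for cerebral vessels, and -0.74 to -0.19 for cerebellar ones. Nfkbid, a dim gene, lay higher in knockouts in both regions (1.20 and 2.10, SE 0.58 each), without passing the test in either. Hsph1 had the lowest values of each control group in mouse 3 (10.68 and 11.20 against 11.59 to 12.30 in the other control arrays) and the highest of each knockout group in mouse 2 (10.97 and 11.16 against 10.27 to 10.49), and these are the mice without Xist.

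Among the lists of other cell types, choroid plexus markers rose in the cerebellum in 2 of 6 cases in each genotype and astrocyte markers in 2 of 9 cases in controls and 4 of 9 in knockouts. Perivascular macrophage markers (5 tested), oligodendrocyte markers (6 tested) and the single red blood cell marker tested had 0 calls with limma in the 5 comparisons of region or genotype, with 0 to 2 genes of a list at an unadjusted p under 0.05. Of 3 forebrain neuron markers tested, 1 was called lower in the cerebellum of knockouts, and 1 of 6 general neuron markers was called lower in the knockouts of each region.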
